A study of Mus musculus with 2 samples.

Results

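*Apoe*, *Apoc1*, *Apoc2*, *Apod* and *Apoa1*, which encode apolipoproteins, *Vldlr*, *Lrp1*, *Scarb1* and *Sort1*, which encode lipoprotein and sorting receptors, and *Lrpap1*, a chaperone of these receptors, were examined in perigonadal white adipose tissue (WAT). These 10 genes were taken by name, from 18193 genes that could be read on the arrays, and all 27 probe sets annotated to one of these symbols alone were included. RNA came from female transgenic mice (PeriA Tg) and from WT littermates, all on the C57BL/6 background, 30 weeks old and fed a high-fat diet with 60% of calories from fat for 25 weeks, with food withdrawn overnight before harvest. The Tg mice were heterozygous for a transgene encoding human perilipin A under the adipocyte aP2 promoter and enhancer, and WT mice lacked it. RNA of 3 mice was pooled for each genotype and hybridised to 1 array, 2 arrays in all, so that there was no replicate, no error over mice and no test of the genotype.

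The arrays give a signal for each probe set, in arbitrary units on a linear scale, after each array was scaled as a whole. The median signal was 95.4 in Tg and 101.1 in WT. The difference between genotypes is given as the signal log ratio, log2 (Tg/WT), and 0.3 in either direction is the threshold of the study. A probe set passed the signal filter when its higher signal reached 98.2, the median over both arrays, and a gene is represented by its brightest probe set. Where a gene had 2 or more passing probe sets, their ratios differed with a pooled SD of 0.41 over 5260 genes, a spread that covers readings of the same pools and not mice. The adipocyte identity of the tissue was plain on both arrays, with signals of 43803 in Tg and 41052 in WT for *Adipoq*, the adipokine adiponectin, and of 53339 in Tg and 51832 in WT for *Fabp4*, the fatty acid-binding protein whose promoter drives the transgene.

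Apolipoproteins are the protein coat of lipoprotein particles and steer the particles to enzymes and receptors. Particles rich in triglyceride are unloaded at the vessel wall by lipoprotein lipase, which apolipoprotein C-II activates, and remnants that carry apolipoprotein E are bound by receptors of the LDL receptor family. Adipose tissue takes up much of this lipid, and both adipocytes and tissue macrophages make apolipoprotein E themselves.

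Of the 10 genes, 9 passed the filter, of which 1 had a signal log ratio over 0.3, 3 were under -0.3 and 5 lay between. *Apod* was the gene over 0.3, and *Apoc2*, *Vldlr* and *Scarb1* were those under -0.3. Among all 11587 genes that passed, 16.6% were over 0.3 and 16.9% were under -0.3, which would be between 1 and 2 of 9 genes on either side. The median of the 9 genes was -0.05, against 0.02 for all genes. When the arrays were set to equal medians, it was 0.03, against 0.105 for all genes, of which 24.9% were then over 0.3 and 13.0% under -0.3. Of the 22 passing probe sets of these genes, 2 were over 0.3 and 8 were under -0.3, or 9.09% and 36.4%, whereas the shares among all 23713 passing probe sets were 17.8% and 21.5%. *Vldlr* alone gave 4 of the 8, so that the probe sets are not separate observations. *Apoc2* was the only one of the 9 genes whose ratio was larger in size than the pooled SD of 0.411, with *Scarb1* just within it at -0.406. This SD is a spread between probe sets and not an error of a ratio, and *Apoc2* has 1 probe set.

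**Figure D1:**
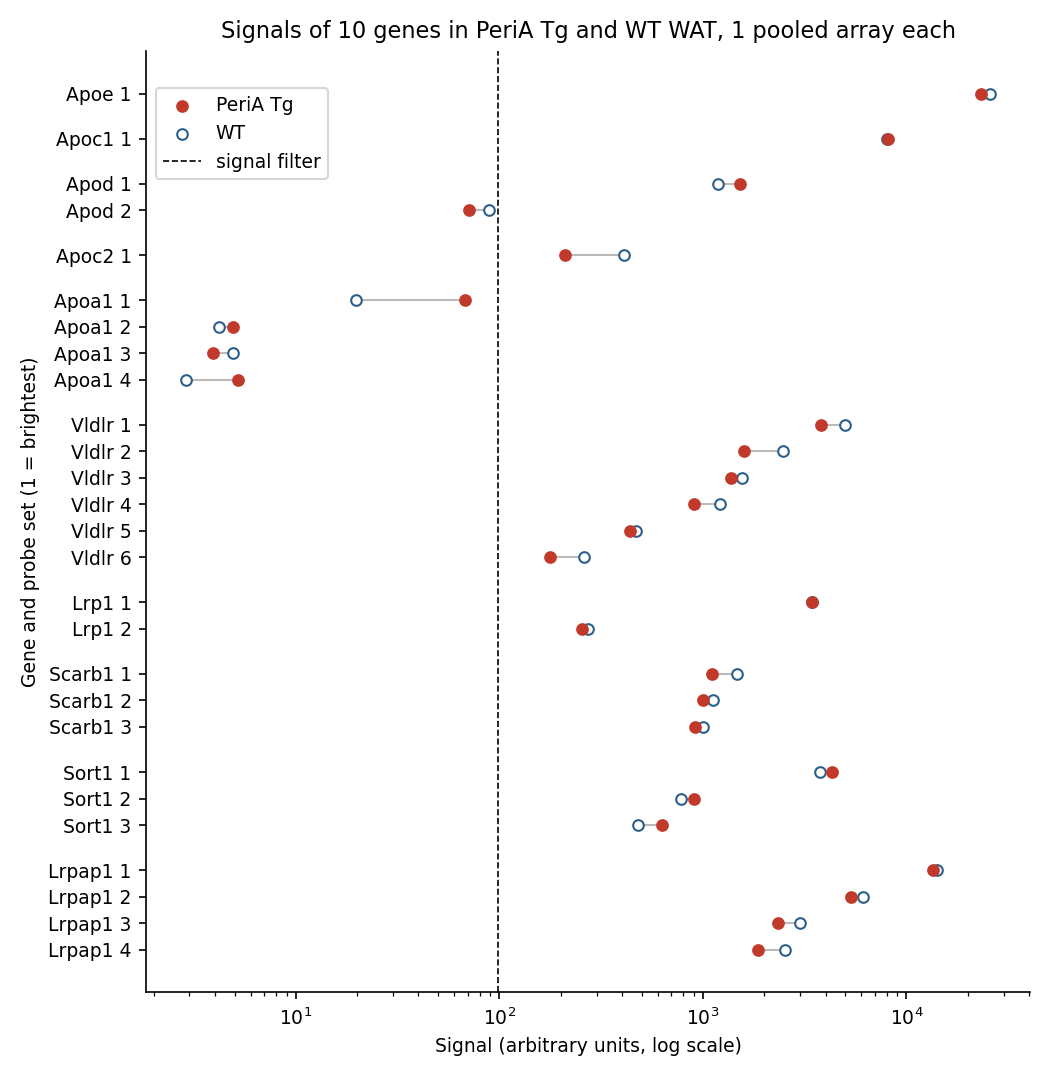
Signals of all 27 probe sets of the 10 genes in PeriA Tg (filled) and WT (open) WAT, 1 array of pooled RNA per genotype, on a log axis in arbitrary units; probe sets are numbered within a gene from the brightest, and the dashed line is the signal filter of 98.2. All 4 probe sets of *Apoa1* and the dimmer one of *Apod* lie under the filter, and all 6 probe sets of *Vldlr* are lower in Tg.

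*Apoe*, whose protein is the ligand of remnant particles for their receptors, had a signal of 23285 in Tg and 25600 in WT, a signal log ratio of -0.14. *Apoc1*, a small apolipoprotein that slows the uptake of particles by receptors, had 8101 in Tg and 7993 in WT, a ratio of 0.02 that was -0.03 after quantile normalization and -0.02 after loess. Both genes have a single probe set here and lay within the threshold. Both are transcribed by adipocytes and by macrophages, and macrophage markers were lower in Tg, as given further on.

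*Apoc2*, the activator of lipoprotein lipase, had 210.2 in Tg and 408.2 in WT, 0.515 of the WT signal and a signal log ratio of -0.96. It has 1 probe set, so that no second reading of the gene was available. *Apoc2* lies in a gene cluster on chromosome 7, in the order *Apoc2*, *Apoc4*, *Apoc1*, *Apoe* and *Tomm40* in the GRCm38.p6 annotation. *Apoc4*, its direct neighbour and a minor apolipoprotein of VLDL, had 60.1 in Tg and 265.1 in WT, a ratio of -2.14 that rests on a Tg signal under the filter. *Tomm40*, an import pore of the mitochondrial outer membrane, had 520.8 in Tg and 664.4 in WT (-0.35, or -0.27 and thus within the threshold at equal array medians), and *Clasrp*, a splicing factor on the other side of the cluster with other genes between, had 383.6 in Tg and 372.5 in WT (0.04). Within this cluster, *Apoc2* and *Apoc4* thus had ratios of -0.96 and -2.14, while *Apoe* and *Apoc1* stayed within 0.3.

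**Figure D2:**
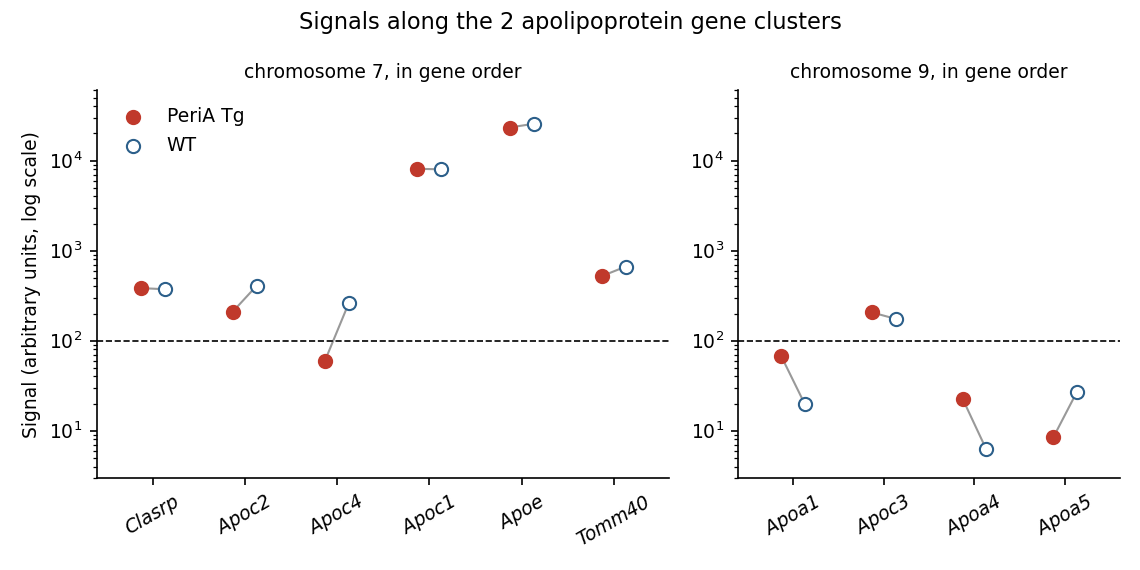
Signals of the brightest probe set of each gene in PeriA Tg (filled) and WT (open) WAT, on log axes in arbitrary units, for the *Apoe* cluster on chromosome 7 and the *Apoa1* cluster on chromosome 9, with genes in their order along the chromosome and without distances. The dashed line is the signal filter of 98.2; *Apoc2* and *Apoc4* are lower in Tg, and *Apoa1*, *Apoa4* and *Apoa5* lie under the filter on both arrays.

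Because neighbours of 1 cluster differed, the promoters of *Apoc2*, *Apoc4* and *Apoe* are shown, with that of *Apod*, the gene over 0.3. They are RefSeq windows of GRCm38.p6, from 250 bases before to 50 after the start, all on the minus strand. A start was available for 7 of the 10 genes, and none for *Apoc1*, *Scarb1* and *Sort1*. Capitals mark AGGTCA, read on both strands, the half-site to which nuclear receptors of lipid metabolism bind. The windows are chr7:19677892-19678191 for *Apoc2*, chr7:19681411-19681710 for *Apoc4*, chr7:19699139-19699438 for *Apoe*, the most upstream of its 3 listed starts, and chr16:31314759-31315058 for *Apod*.
Apoc2: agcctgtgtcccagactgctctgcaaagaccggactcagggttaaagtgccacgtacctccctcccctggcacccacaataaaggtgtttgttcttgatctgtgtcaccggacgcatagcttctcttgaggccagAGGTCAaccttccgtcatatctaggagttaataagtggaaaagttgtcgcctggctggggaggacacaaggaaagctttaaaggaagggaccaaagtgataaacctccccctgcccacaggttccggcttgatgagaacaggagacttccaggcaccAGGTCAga
Apoc4: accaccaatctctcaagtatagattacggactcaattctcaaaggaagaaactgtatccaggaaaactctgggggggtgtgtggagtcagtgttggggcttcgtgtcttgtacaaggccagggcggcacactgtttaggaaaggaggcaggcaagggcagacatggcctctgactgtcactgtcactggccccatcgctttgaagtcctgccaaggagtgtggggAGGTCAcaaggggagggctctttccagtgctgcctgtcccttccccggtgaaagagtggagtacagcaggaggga
Apoe: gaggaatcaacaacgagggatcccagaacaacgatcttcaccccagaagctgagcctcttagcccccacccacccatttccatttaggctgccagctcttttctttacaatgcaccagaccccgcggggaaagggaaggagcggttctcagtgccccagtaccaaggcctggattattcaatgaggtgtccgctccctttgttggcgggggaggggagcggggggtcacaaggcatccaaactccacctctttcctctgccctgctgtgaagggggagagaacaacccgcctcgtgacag
Apod: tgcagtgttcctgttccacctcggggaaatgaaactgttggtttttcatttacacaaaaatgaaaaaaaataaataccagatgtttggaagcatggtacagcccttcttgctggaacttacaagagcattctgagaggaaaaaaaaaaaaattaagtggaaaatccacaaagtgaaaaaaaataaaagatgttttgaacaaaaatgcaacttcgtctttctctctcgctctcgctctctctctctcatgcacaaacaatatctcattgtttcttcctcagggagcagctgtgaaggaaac

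The half-site AGGTCA was present at 2 places in the *Apoc2* window, beginning 115 bases before and 42 bases after the start, and at 1 place in the *Apoc4* window, 25 bases before it. It was in none of the windows of *Apoe*, *Apod*, *Apoa1*, *Vldlr*, *Lrp1* and *Lrpap1*, and 16.3% of all 32851 RefSeq windows contain it. *Apoc1*, which was also within the threshold, had no window and could not be searched. The comparison within the cluster therefore rests on *Apoc2*, *Apoc4* and *Apoe* only. The GC content was 52.7% for *Apoc2*, 55% for *Apoc4*, 57.7% for *Apoe* and 37.3% for *Apod*, against a median of 52.7% over all windows. No binding was measured in this study, and the letters describe the sequence only.

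*Apod*, a lipocalin that carries small lipids such as arachidonic acid, had a signal of 1522 in Tg and 1183 in WT, a signal log ratio of 0.36. Its other probe set was under the filter, with 71.1 in Tg and 88.8 in WT (-0.32), and thus points the other way. Fibroblasts are also a known source of *Apod*. Of 14 fibroblast and progenitor markers, 1 was over 0.3, *Pdgfra* at 0.32, and 2 were under -0.3, with a median of -0.08 (0.01 at equal array medians) and summed signals of 175143 in Tg and 170636 in WT. The part of these cells in the value of *Apod* was not tested.

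*Apoa1*, the main protein of HDL and a product of liver and intestine, did not pass the filter. Its 4 probe sets had signals of 67.6, 4.90, 3.90 and 5.20 in Tg and of 19.8, 4.20, 4.90 and 2.90 in WT, from the brightest to the dimmest. The ratio of the brightest was 1.77 and that of the others 0.22, -0.33 and 0.84, so that no level and no direction can be read for this gene. Along its cluster on chromosome 9, *Apoc3*, an inhibitor of lipoprotein lipase, passed with 205.9 in Tg and 174.8 in WT (0.24). *Apoa4* with 22.5 in Tg and 6.20 in WT, and *Apoa5* with 8.50 in Tg and 27.2 in WT, were under the filter. Of 9 hepatocyte markers, 8 were under the filter as well, and *Alb*, which encodes serum albumin, had 1262 in Tg and 889 in WT, with summed signals of 1434 in Tg and 1178 in WT.

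*Vldlr*, which binds triglyceride-rich particles carrying apolipoprotein E and helps lipoprotein lipase to act on them, had the widest coverage of the 10 genes. Its 6 probe sets had signals of 3794, 1589, 1370, 904.9, 437 and 176.3 in Tg and of 4998, 2463, 1547, 1213, 469.9 and 260.4 in WT, from the brightest to the dimmest. In all 6, the Tg signal was the lower one. The ratios were -0.40, -0.63, -0.18, -0.42, -0.10 and -0.56, with a median of -0.41 and an SD of 0.21 over the probe sets, and 4 of 6 were under -0.3. The probe sets read the same 2 pools and are not replicates of the genotype.

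*Scarb1*, the HDL receptor SR-BI, which takes up cholesteryl esters without taking up the particle, had 1114, 1005 and 910.1 in Tg and 1476, 1117 and 1003 in WT over its 3 probe sets. All 3 were lower in Tg, with ratios of -0.41, -0.15 and -0.14. Only the brightest was under -0.3, and the value of the gene therefore depends on which probe set is read. *Scarb1* is also abundant in steroid-producing cells of the ovary, which lies beside this fat depot. Of 8 ovarian and steroidogenic markers, 6 were under the filter, *Star* had 229.1 in Tg and 161.5 in WT (0.50), and *Foxl2* had 104.3 in Tg and 193.9 in WT (-0.89), with summed signals of 515.9 in Tg and 536.9 in WT.

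*Sort1* encodes sortilin, a sorting receptor that binds lipoprotein lipase and belongs to the vesicles that store the glucose transporter GLUT4 in adipocytes. Its 3 probe sets had 4303, 906 and 631.7 in Tg and 3779, 780.6 and 479.6 in WT. All 3 were higher in Tg, with ratios of 0.19, 0.21 and 0.40, of which the dimmest was over 0.3. The SD over these probe sets was 0.11.

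*Lrp1*, a large endocytic receptor for remnant particles, had 3415 in Tg and 3446 in WT on the brightest probe set (-0.01) and 253.7 in Tg and 273.5 in WT on the other (-0.11). *Lrpap1*, the chaperone that keeps receptors of this family from binding ligands on their way to the cell surface, had 13562, 5367, 2338 and 1872 in Tg and 14058, 6112, 2994 and 2524 in WT. Its ratios were -0.05, -0.19, -0.36 and -0.43 from the brightest to the dimmest probe set. The gene value of *Lrpap1* is within the threshold, yet its 2 dimmest probe sets are under -0.3. When the arrays were set to equal medians, *Lrp1* had 0.07 and *Lrpap1* had 0.03, so that neither has a settled direction.

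**Figure D3:**
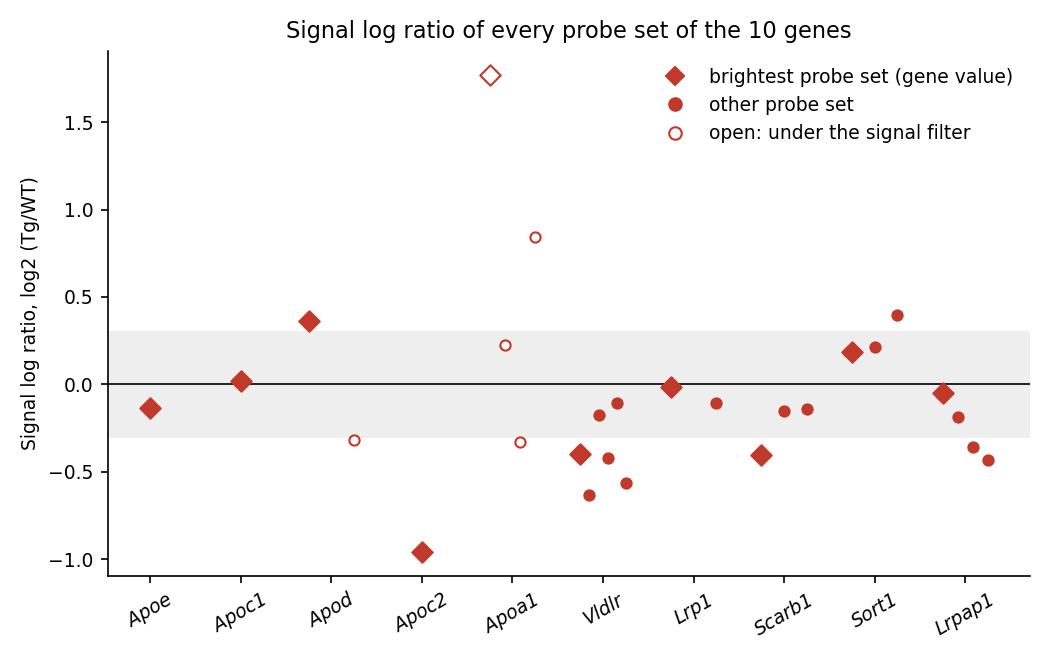
Signal log ratio, log2 (Tg/WT), of every probe set of the 10 genes, with the brightest probe set of each gene as a diamond, the others as circles, open symbols for probe sets under the signal filter and a grey band from -0.3 to 0.3. All passing probe sets of *Vldlr*, *Scarb1* and, as deposited, *Lrpap1* lie under 0 and all 3 of *Sort1* lie over 0, while *Apoc2* is the lowest at -0.96.

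For the 5 genes read by several passing probe sets, the pooled SD within a gene was 0.17. Of 13 dimmer probe sets of these genes, 7 had a ratio lower than that of the brightest one, with a median difference of -0.02. A difference between the arrays in control probe sets stands beside these values. In all 8 pairs for bacterial poly-A controls, which are labelled with the sample RNA, the 5′ probe set had the lower ratio, by a median of -0.55. The same difference had a median of -0.0050 in 8 pairs of hybridisation controls, which enter only once the labelling is done. In 5 pairs for mouse control transcripts, it had a median of -0.25 and ranged from -1.67 to 0.31, with 4 of 5 below 0. The poly-A pairs, and likewise the hybridisation pairs, include repeated readings of the same control transcript. The 8 pairs of either kind are thus not separate observations. Whether the tissue RNA itself differed between the arrays was not tested. The place of the probes of the 10 genes along their transcripts was not analysed here. The part of the difference in the control pairs in the values of *Lrpap1*, *Vldlr* and *Scarb1* was not tested.

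Macrophages are a known source of apolipoproteins E, C-I and C-II. Of 24 macrophage markers, all passed the filter, 17 were under -0.3 and 0 were over 0.3, with a median signal log ratio of -0.50 and summed signals of 94837 in Tg and 132503 in WT. *Trem2*, a receptor of lipid-laden macrophages, had 294.5 in Tg and 1062 in WT (-1.85), *Itgax*, the integrin CD11c, had 480.3 in Tg and 1220 in WT (-1.35), and *Cd68*, a lysosomal marker, had 1453 in Tg and 3183 in WT (-1.13). *Trem2* was the lowest of the 24 markers, and 7 lay within the threshold. Among these 7 were *Mrc1* (-0.0039), *Csf1r* (-0.16), *Adgre1* (-0.28) and *Cd14*, the highest at 0.18. *Apoc2*, read by 1 probe set, had a ratio of -0.96, and *Apoe* and *Apoc1* were within the threshold. In RNA of whole tissue, fewer cells of a type and less RNA per cell cannot be told apart, and the part of macrophages in the values of the apolipoproteins was not tested. Of 13 adipocyte markers, 3 were over 0.3 and 1 was under -0.3, with a median of 0.11 and summed signals of 256153 in Tg and 237517 in WT. The 10 endothelial markers, from the cells that carry lipoprotein lipase and also express *Vldlr* and *Scarb1*, had a median of -0.06 (0.02 at equal array medians), with 1 under -0.3 and 0 over 0.3, and summed signals of 9378 in Tg and 9637 in WT.

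The other genes of lipoprotein handling were read from 7 lists with 96 genes, of which 77 could be named on the arrays and 55 passed the filter. Of these 55, 6 were over 0.3, 10 were under -0.3 and 39 lay between, with a median of -0.05. Their shares past the threshold, 10.9% over and 18.2% under, can be read against 16.6% and 16.9% of all genes.

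Of 8 other genes listed as apolipoproteins that passed, 1 was over 0.3 and 2 were under -0.3, with a median of 0.16. They include *Apoo* (0.16), *Apool* (-0.14) and *Apol6* (0.15), and whether each product is carried on lipoprotein particles was not examined. On 1 array only, 2 of the 8 reached the filter, and without the filter the median over the 17 named genes was -0.14. Besides *Apoc4*, the lowest was *Apol11b*, a member of the apolipoprotein L family, with 140 in Tg and 213.9 in WT (-0.61), whereas its other probe set had 183.4 in Tg and 129.7 in WT (0.50). *Apol7a*, of the same family, had 110.1 in Tg and 83.5 in WT (0.40). Of 7 other members of the LDL receptor family, 1 was over 0.3 and 2 were under -0.3, with a median of -0.13. *Lrp12* had 290.5 in Tg and 375.8 in WT (-0.37), and *Ldlrad3* had 326.8 in Tg and 409.6 in WT (-0.33). At equal array medians they had -0.29 and -0.24, both within the threshold, and *Ldlrad3* was just within it after quantile normalization as well. *Lrp2*, megalin, had 140.5 in Tg and 110.9 in WT (0.34), but its other 2 probe sets had -0.42 and -0.44. *Lrp6*, a coreceptor of Wnt signals, had 0.06, and -0.29 on its second probe set. Of the sortilin relatives, *Sorl1* alone passed, with 1680 in Tg and 1785 in WT (-0.09).

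Of 8 genes listed as adaptors and regulators of these receptors, 0 were over 0.3 and 1 was under -0.3, with a median of 0.08. The gene under -0.3 was *Stap1*, a signalling adaptor, with 195.7 in Tg and 403.1 in WT (-1.04). Whether *Stap1* acts on lipoprotein receptors was not examined. *Mylip*, the ubiquitin ligase IDOL that marks lipoprotein receptors for breakdown, had 1522 in Tg and 1677 in WT (-0.14), and *Cd2ap* and *Furin* had 0.16 and 0.15. Of 13 scavenger receptors, 1 was over 0.3 and 4 were under -0.3, with a median of -0.20, which was 0.03 under the stricter filter. The lowest were *Marco*, a receptor of macrophages, with 47.4 in Tg and 133 in WT (-1.49), and *Olr1*, which takes up oxidised LDL, with 98.7 in Tg and 260.4 in WT (-1.40). The highest were *Colec12*, a scavenger receptor with a lectin domain, with 726.7 in Tg and 470.7 in WT (0.63), and *Scara5*, a ferritin receptor, with 0.22.

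Of 10 genes of the lipoprotein lipase system and particle remodelling that passed, 9 were within the threshold. The median of this list was -0.07 (0.02 at equal array medians, but -0.19 under the stricter filter). *Lpl* itself had 42792 in Tg and 41895 in WT (0.03, or -0.03 after quantile normalization or loess). The highest signals on the arrays were 56988 in Tg and 53205 in WT. By real-time PCR on WAT of mice of the same age and diet, the paper reported significantly lower *Lpl* in Tg. The array values therefore do not settle the level of *Lpl*. *Pltp*, which moves phospholipids between particles, had -0.26 on its brightest probe set and -0.61 on the other, and *Glmp*, a lysosomal membrane protein, had -0.23. *Mttp*, which loads lipid onto apolipoprotein B, was the gene over 0.3, with 122.1 in Tg and 66.8 in WT (0.87), while the second one, which did not pass, had -0.44. *Sel1l*, needed for the folding and export of lipoprotein lipase, had 0.20 on the brightest probe set and -0.88, -0.15, -1.82 and -1.26 on the others. Among 8 genes of sterol efflux and its nuclear receptors, 2 were over 0.3 and 1 was under -0.3, with a median of 0.16. *Abcg1*, which exports cholesterol to HDL, had 2958 in Tg and 1904 in WT (0.64) and 0.11 on its other probe set, *Rxrb* had 0.40, *Abca7* had -0.48 and *Rxra*, the partner of LXR, had -0.19 and -0.43 on its second probe set.

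**Figure D4:**
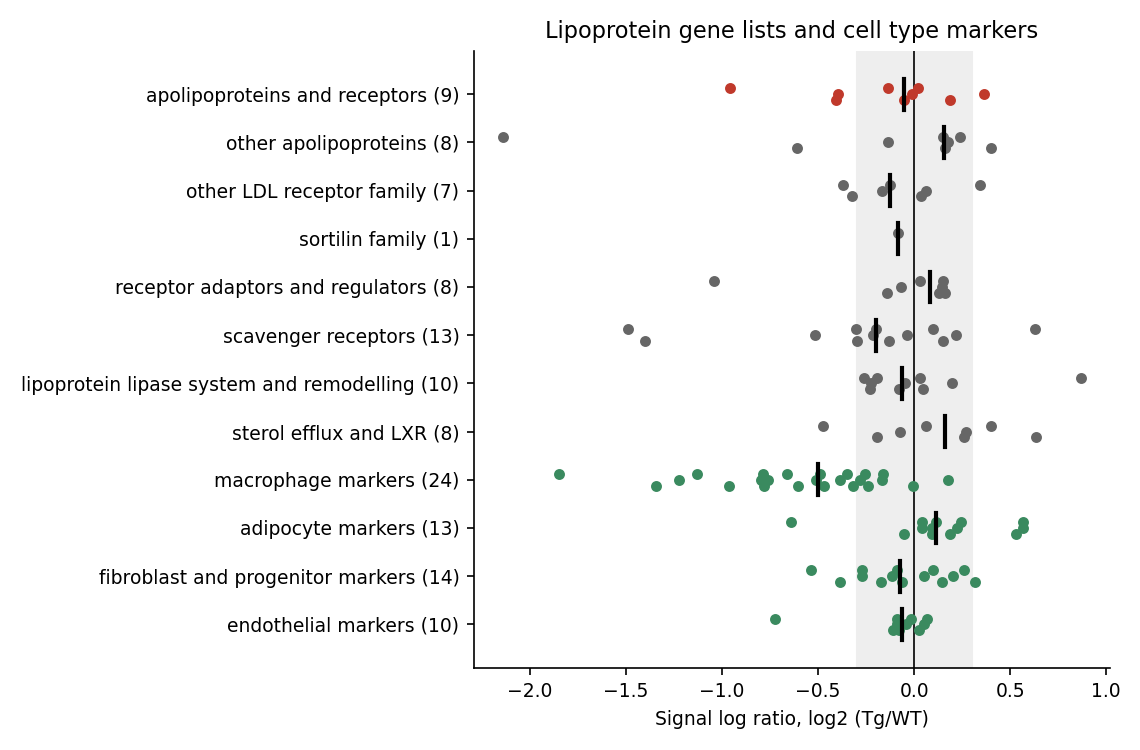
Signal log ratio, log2 (Tg/WT), of each passing gene, shown as a point, for the apolipoproteins and receptors of this study (red), 7 lists of other lipoprotein genes (grey) and 4 lists of cell type markers (green), with the number of genes in brackets. Black bars are medians, the grey band covers -0.3 to 0.3, the height within a row has no meaning, and the macrophage markers have the lowest median at -0.50.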

How the data were processed

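Biotinylated cRNA from total RNA of perigonadal WAT was hybridised to 2 Affymetrix mouse genome arrays, 1 pool of 3 mice per genotype. The authors made the deposited intensity values, 1 signal per probe set, with GeneChip Operating Software, and the submitters' processing notes name MAS5 without a version. This method combines perfect-match and mismatch probes, which leaves dim signals imprecise, and sets the arrays to a common trimmed mean. The deposited table holds 45101 probe sets, of which 64 are controls. The study's filter on Present calls was replaced by the signal filter, since detection calls were not used here. Genotypes were taken from the sample labels.

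The signal log ratio was computed from the deposited signals without further normalization or pseudocount. Symbols were those of the platform annotation: 34945 probe sets had 1 symbol, 932 had several and 9160 were not listed. With 1 array per genotype, no test was run and no p-value is given, and the number of arrays limits the precision. The 10 genes, the 7 lists, the cell type markers and the settings were chosen with earlier results of these data known. Named beyond the 10 genes were neighbours in the gene clusters, *Lpl*, and the 2 highest and 2 lowest passing genes of each list; cell type markers are examples chosen with their values known.

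The alternatives were median centring of the log ratios, quantile normalization, loess with a span of 0.3, a pseudocount of 25.1, a floor of 56.9, no filter, a stricter filter at 470.5, other ways of reading a gene, and thresholds of 0.5 and 1. Equal array medians, and the alternatives for probe sets, lists and genes beyond the 10, were added after the data were seen. Counts and scalings were tested on simulated data with planted changes. Python 3.11.15, numpy 2.4.6, pandas 2.3.3, statsmodels 0.14.6 and matplotlib 3.10.9 were used.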

Additional observations from a re-analysis of the deposited data

How the results depend on the processing

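Of 103 values of the 10 genes under other settings, 97 stayed on their side of the threshold and 5 were no longer past it. The remaining 1, *Apod* at -0.32 on its second-brightest probe set, under the filter, turned from one side to the other. Within the threshold, *Apoc1* also changed sign after quantile normalization and loess, and *Lrp1* and *Lrpap1* at equal array medians. Part of the 97 was fixed in advance. Leaving out the filter or making it stricter changes which genes pass, but not the value of any gene. The floor changed the value of *Apoa1* alone, and the median over probe sets cannot move a gene with 1 probe set. The 97 are therefore not all separate checks. *Apoc2* ranged from -0.96 to -0.87, but did not pass the stricter filter, which left 2 genes under -0.3, and it has no second probe set. The median over probe sets also left 2, without *Scarb1*. *Vldlr* ranged from -0.63 to -0.18, the last on the brightest of its unsuffixed probe sets, which lack a mark for shared or variant transcripts, and *Scarb1* from -0.42 to -0.15.

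Without the filter, 2 of the 10 genes were over 0.3, since *Apoa1* is then included. On unsuffixed probe sets, 1 of 7 genes was under -0.3. On second-brightest probe sets, which 7 genes have and 5 pass, 0 were over 0.3 and 1 was under -0.3. At a threshold of 0.5, 0 were over and 1 was under, and at a threshold of 1, 0 were over and 0 were under. At equal array medians, a setting added after the data were seen, the median of the 9 genes was 0.03 and the same 1 and 3 genes were past the threshold, while among all genes past it the share of higher ones was 65.6%, against 49.6% as deposited. Of the other genes named, *Lrp2* had -0.038 as the median of its probe sets, and on second-brightest probe sets *Lrp2* had -0.42, *Apol11b* 0.50 and *Mttp* -0.44, all with the other sign. *Sel1l* (-0.88), *Lrp6* (-0.29), *Cd2ap* (-0.12), *Sorl1* (0.05), *Scara5* (-0.08) and *Lpl* changed sign there too, though none of these was past the threshold as reported. *Rxra* had -0.31 as the median of its probe sets, and *Abcg1* was within the threshold on its second one. Equal array medians brought *Tomm40*, *Lrp12* and *Ldlrad3* within the threshold, and put *Apoc3* (0.32) and *Scara5* (0.30) over it. *Pltp* was under -0.3 after quantile normalization (-0.31) and loess (-0.30), and *Lrp2* was within the threshold with the pseudocount (0.28). No paired analysis was possible because each genotype has 1 array. *Apoc4*, *Apol7a*, *Marco* and *Mttp* reached the filter on 1 array only.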

Other observations

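Further cell types were read from the same arrays, and their part in the values of the apolipoproteins and receptors was not tested. All 8 brown adipocyte markers were over 0.3, with a median signal log ratio of 2.83 and summed signals of 28056 in Tg and 4943 in WT, and 2 of them passed the signal filter in Tg only. Mesothelial markers had a median of 0.25, and 3 of 8 exceeded 0.3. Of 4 Schwann cell markers that could be named, 2 passed, *Mbp* at 0.37 and *S100b* at 0.48. The 7 reference genes all lay within 0.3, between -0.14 and 0.21.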
